A study of Mus musculus with 20 samples.

Results

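The regions described here are 449 tiles of 100 bp on the 19 mouse autosomes that carried almost no DNA methylation in sperm and clear methylation in the paternal pronucleus of the zygote. They were chosen from 61688 tiles measured in both sperm libraries and in all 8 paternal pronuclear libraries. A tile was kept if its level, the percent of methylated cytosine calls summed over its CpG positions, was 5% or less in both sperm libraries and 15% or more in the 4 paternal libraries made without drug. Of the measured tiles, 47110 met the sperm limit (called low tiles below), and the kept tiles were 0.953% of these and 0.728% of all tiles measured. The sperm values and those of the 4 mock paternal libraries therefore made the choice, and they are given as a description with no test. The aphidicolin paternal libraries entered it only through coverage, not through their levels. The maternal and oocyte libraries took no part in it.

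After fertilisation the paternal genome, packed with protamines in sperm, is repackaged with histones and loses most of its DNA methylation within the first cell cycle. Tet3, an enzyme stored in the egg that oxidises 5-methylcytosine, and dilution of the mark at DNA replication both contribute to that loss. New methylation is set by the de novo enzymes Dnmt3a and Dnmt3b, of which Dnmt3a is present in the egg, and CpG-rich stretches that are unmethylated in sperm usually stay so. Bisulfite sequencing reads 5-methylcytosine and its first oxidation product, 5-hydroxymethylcytosine, alike, so a level here is the sum of both.

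The series measured 20 libraries, 2 in each of 10 groups, by reduced representation bisulfite sequencing, in which the enzyme MspI cuts at CCGG and CpG-rich fragments are sequenced after bisulfite treatment. CKO-Pat-Aphi, WT-Pat-Aphi, CKO-Mat-Aphi and WT-Mat-Aphi were paternal (Pat) and maternal (Mat) pronuclei of zygotes moved at 5 h after fertilisation into 3 µg/ml aphidicolin, an inhibitor of replicative DNA polymerases, and CKO-Pat, WT-Pat, CKO-Mat and WT-Mat came from mock zygotes. CKO zygotes came from females with a Tet3 conditional knockout (Zp3-Cre, f/-), in which Cre is driven by the Zp3 promoter of growing oocytes, and WT zygotes from f/f females, for which the labels name no Cre. The deletion itself is not read by these data. The gamete groups were Sperm and Oocyte, both labelled WT and mock. Females were 7 to 10 weeks old and superovulated, and the sperm for all zygotes came from adult C57BL/6J males, so the sperm brought an allele that the females' Cre had not deleted. Pronuclei were taken out at 12 h, told apart by size and by distance from the polar body, and frozen at 13 h. A library typically started from about 20 pronuclei and 21 PCR cycles, so each value is a mean over several zygotes. The labels do not say whether replicates came from separate mothers or days, so spreads and p-values cover these libraries and may be technical.

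Libraries held between 22431861 and 68056783 calls and between 877632 and 1507589 positions with 5 or more reads. Mitochondrial CpG calls were 0.155% to 0.320% methylated in the 16 pronuclear libraries. At the 1291 tiles at 75% or more in both Sperm and 5% or less in both Oocyte libraries, the mean level was 88.7% and 95.1% in CKO-Pat-Aphi, 59.6% and 66.6% in CKO-Pat, 91.5% and 92.8% in WT-Pat-Aphi, 49.8% and 54.0% in WT-Pat and 95.3% and 95.4% in Sperm. The same tiles averaged 7.27% and 9.38% in CKO-Mat, 1.96% and 2.23% in WT-Mat and 0.819% and 0.755% in Oocyte. The files of the mock pronuclear libraries list their chromosomes in another order than those of the aphidicolin and gamete libraries. A difference in processing between these sets therefore cannot be told apart from the drug. Nor can it be told apart from a difference between mock pronuclei and Sperm or Oocyte.

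The 449 tiles fell into 326 regions when tiles whose starts lay under 500 bp apart were joined. Of these regions 231 held 1 tile, 71 held 2, 20 held 3 and 4 held 4, so 218 tiles sat in the 95 regions of 2 tiles or more. Tiles of the same region share fragments and zygotes and are not independent. A member had a median of 8 CpG positions read in sperm (middle range 5 to 11), close to the 9 of the other low tiles (5 to 15). By contrast, tiles at 75% or more in both Sperm libraries had a median of 3 positions. Depth at the members was a median of 313 calls per tile and library, against 338 in the other low tiles, and none of the members exceeded 10 times the median depth. At that depth 156 methylated calls (49.8%) have a 95% Wilson interval of 44.3% to 55.3%, and a tile with no methylated call could hold up to 0.958%. Both figures cover counting error only, since PCR copies of about 20 pronuclei are not independent molecules. Every autosome carried members, from 0.599% of the low tiles on chromosome 3 to 1.46% on chromosome 7.

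In the libraries that chose them, the members averaged 44.5% and 48.7% in CKO-Pat, 46.4% and 49.9% in WT-Pat and 0.573% and 0.571% in Sperm. The mean over the 4 mock libraries ran from 18.9% to 97.4% with a median of 45.8%, and 179 members had a mean of 50% or more. In 256 members the lowest mock library was at 25% or more, and in 55 it was at 50% or more. Most members thus stood at intermediate levels in these libraries, which are pools of several pronuclei and had to reach 15%. How single molecules were methylated was not tested. The 3 members just inside the 15% limit had lowest mock levels of 15.0% at chr7:140901001-140901100 and 15.1% at chr16:17530601-17530700 and chr10:122702501-122702600, and the 3 tiles just outside, at chr2:59962801-59962900, chr1:187279301-187279400 and chr18:65591101-65591200, stood at 14.98%, 14.97% and 14.97%. At the sperm limit the nearest member stood at 4.93% and the nearest tile outside at 5.08%. All coordinates are of the mouse build mm9, counted from 1. A gene annotation of that build was not used here, so regions are named by position.

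The aphidicolin libraries, which did not choose the tiles, showed the same gain over sperm at most of them. The members averaged 42.9% and 37.8% in CKO-Pat-Aphi (40.3% ± 3.59, SD, n = 2 libraries), 49.3% and 36.9% in WT-Pat-Aphi (43.1% ± 8.81, n = 2) and 0.573% and 0.571% in Sperm. All low tiles together averaged between 1.51% and 2.49% in these 4 libraries. At the members every aphidicolin library thus lay far above all low tiles in the same library, which met the same sperm limit. The distance to Sperm was 39.7 points in CKO-Pat-Aphi and 42.5 points in WT-Pat-Aphi. The choice held the Sperm values low, so this distance is a description, with no test. With 2 libraries against 2 an exact two-sided permutation test could in any case not give a p below 0.333.

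Of the 449 members, 191 (42.5%) were at 15% or more in all 4 aphidicolin libraries, where 0.732% of the low tiles were. These 191 were 55.4% of the 345 low tiles that the aphidicolin libraries alone would choose. Both CKO-Pat-Aphi libraries were at 15% or more in 269 members (59.9%), against a background of 1.44%, and both WT-Pat-Aphi libraries in 277 (61.7%), against 1.63%. A further 143 members reached 15% in 3 of the 4 libraries, 78 in 2, 29 in 1 and 8 in none. Taken by library, 80.2% and 71.9% of the members were at 15% or more in CKO-Pat-Aphi and 87.1% and 67.7% in WT-Pat-Aphi, where the low tiles stood at 3.13% to 5.32%. Fewer members were in the sperm range: 58 and 83 were at 5% or less in CKO-Pat-Aphi, and 41 and 89 in WT-Pat-Aphi.

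A second check used the mock libraries themselves. The choice was repeated with 3 of the 4 mock libraries and the level was read in the library left out. The 541 tiles chosen without CKO-Pat replicate 1 averaged 38.3% in it, and 83.0% of them were at 15% or more. The 573 chosen without CKO-Pat replicate 2 averaged 39.5% in it, with 78.4% at 15% or more. The 511 chosen without WT-Pat replicate 2 averaged 44.5% in it, with 87.9% at 15% or more. WT-Pat replicate 1 stood apart: 728 tiles, against 449, were chosen without it, and they averaged 29.8% in it, with 61.7% at 15% or more and 27.9% at 5% or less. That library had the fewest positions with 5 or more reads of all 20. In the 4 left-out libraries the low tiles at 15% or more were 3.31% to 4.66%.

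**Figure D1:**
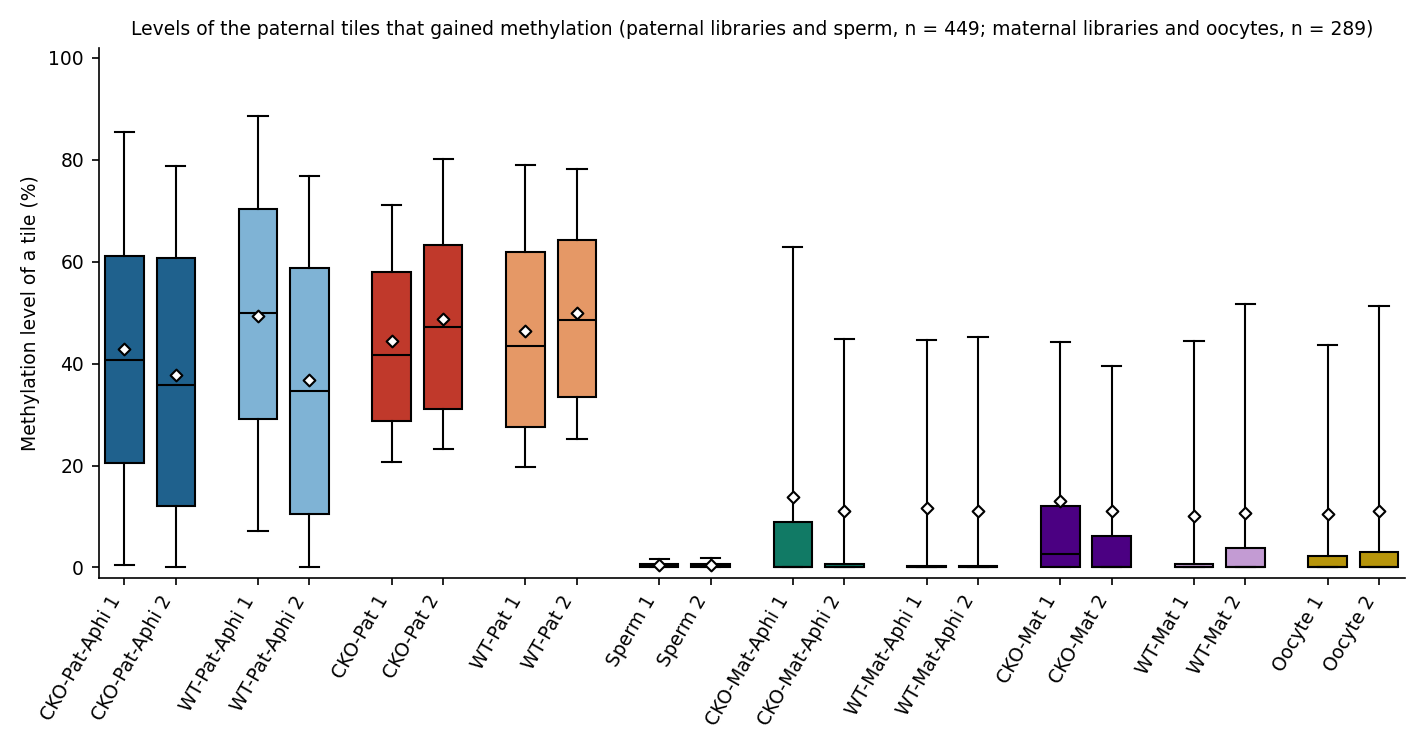
Methylation level of the chosen tiles in every library, in percent on the vertical axis (box, middle range with the median; whiskers, 10th to 90th percentile; diamond, mean). Paternal pronuclei average 36.9% to 49.9% with or without aphidicolin and both Sperm libraries lie near 0, while maternal pronuclei and oocytes, shown for the 289 tiles measured there, have means of 10.1% to 13.8% and medians at or near 0.

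**Figure D2:**
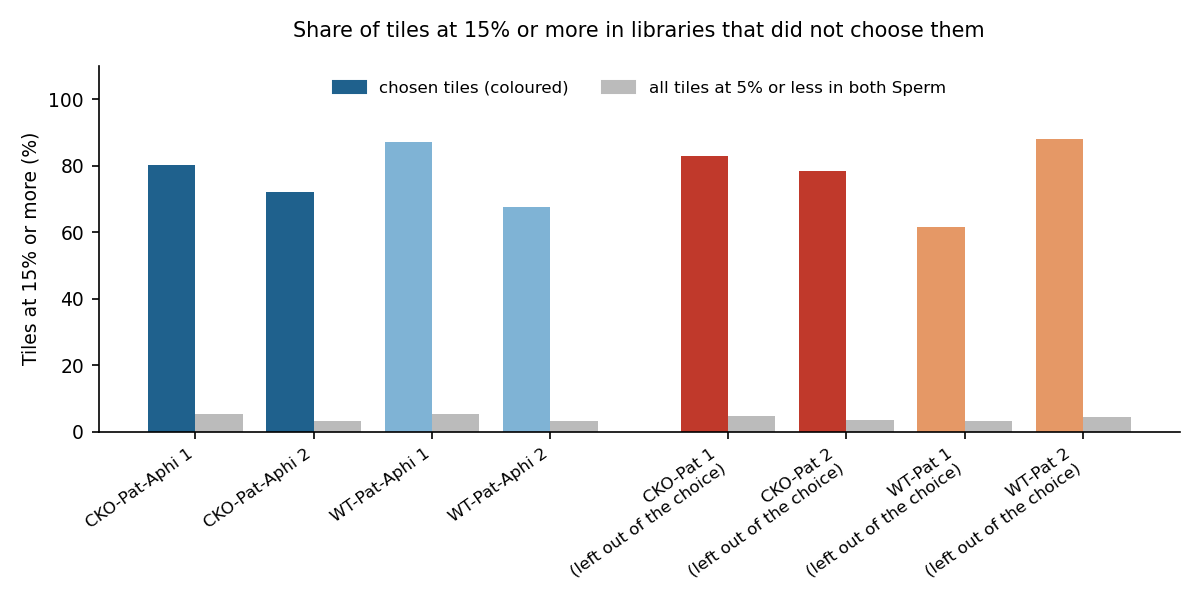
Share of tiles at 15% or more, in percent, in libraries that did not choose them (coloured bars) beside all tiles at 5% or less in both Sperm (grey bars). For mock libraries the tiles were chosen anew from the other mock libraries and Sperm; 61.7% to 87.9% of chosen tiles reach 15% there, and 67.7% to 87.1% in the aphidicolin libraries, against 3.13% to 5.32% of low tiles.

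The regions with the highest levels show how the gain looked library by library. Ranked by their lowest mock library, among regions of 2 or more tiles, the first was chr17:89191201-89191400, with 20 CpG positions. It stood at 74.4% and 64.6% in CKO-Pat-Aphi, 36.1% and 55.3% in WT-Pat-Aphi, 69.3% and 73.5% in CKO-Pat, 71.0% and 85.0% in WT-Pat and 2.06% and 1.52% in Sperm. All 8 paternal libraries were above 36%, and the 2 WT-Pat-Aphi libraries were the lowest of them. Its maternal libraries were lower, at 7.30% and 9.28% in CKO-Mat, 22.3% and 5.27% in WT-Mat and 5.84% and 15.3% in Oocyte.

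The third region, chr13:31707101-31707300 with 26 positions, was the most deeply read of the 12 first-ranked, at a median of 948 calls per library. Its level was 52.9% and 70.6% in CKO-Pat-Aphi, 82.4% and 65.8% in WT-Pat-Aphi, 57.9% and 71.3% in CKO-Pat, 80.7% and 65.0% in WT-Pat and 0.318% and 0.479% in Sperm. The aphidicolin libraries spanned the same range as the mock libraries. Among the maternal libraries CKO-Mat replicate 1 was high at 27.7%, CKO-Mat replicate 2 was at 0.0450%, WT-Mat at 0% and 1.47% and Oocyte at 0.266% and 1.66%.

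At the fourth region, chr16:20651601-20651800, the paternal pronuclei held 53.6% and 81.5% in CKO-Pat-Aphi, 76.2% and 61.8% in WT-Pat-Aphi, 61.2% and 76.7% in CKO-Pat and 55.6% and 73.0% in WT-Pat, against 0.0789% and 0.0679% in Sperm. The maternal pronuclei held 0.0707% and 0% in CKO-Mat-Aphi, 0% in both WT-Mat-Aphi libraries, 1.27% and 5.35% in CKO-Mat and 5.74% and 4.40% in WT-Mat, against 0% in both Oocyte libraries. No maternal library came near any paternal library at this region.

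The sixth region, chr16:35363701-35364000, had the same form. Its paternal level was 62.2% and 49.6% in CKO-Pat-Aphi, 92.2% and 59.1% in WT-Pat-Aphi, 53.4% and 85.7% in CKO-Pat and 62.7% and 51.8% in WT-Pat, against 0.144% and 0.0850% in Sperm. Its maternal level was 0% in 5 libraries and at most 6.50%, in WT-Mat-Aphi replicate 2, with 0% in both Oocyte libraries. The fifth region, chr1:182834401-182835000, spanned 3 tiles and stood at 43.1% and 60.7% in CKO-Pat-Aphi, 55.9% and 41.9% in WT-Pat-Aphi, 53.1% and 59.4% in CKO-Pat, 55.0% and 64.5% in WT-Pat and 0.238% and 1.02% in Sperm. Both regions were at under 1% in Oocyte. At the fifth, the maternal pronuclei reached 15.0% in CKO-Mat-Aphi replicate 1 and 7.72% in CKO-Mat replicate 1. The remaining maternal pronuclear libraries were at 2.74% or less there, and 2 of its 3 tiles were measured in all maternal libraries.

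Other first-ranked regions departed from this pattern in the aphidicolin or the maternal libraries. At the seventh, chr6:43615901-43616200, the aphidicolin libraries were lower than all mock libraries, with 17.9% and 43.6% in CKO-Pat-Aphi against 70.4% and 58.7% in CKO-Pat, and 33.8% and 22.6% in WT-Pat-Aphi against 51.3% and 65.3% in WT-Pat. At the ninth, chr2:155340401-155340600, CKO-Pat-Aphi was higher, with 92.7% and 75.8% against 55.0% and 49.3% in CKO-Pat, while WT-Pat-Aphi at 67.9% and 58.0% overlapped WT-Pat at 50.6% and 62.0%. The region ranked 10, chr1:193960601-193961000, was unmethylated in sperm and methylated in the oocyte. There the paternal libraries held 61.6% and 56.6% in CKO-Pat-Aphi, 64.3% and 34.5% in WT-Pat-Aphi, 50.4% and 56.6% in CKO-Pat and 48.3% and 66.0% in WT-Pat, against 0.405% and 0.434% in Sperm. The maternal libraries held 84.3% and 88.2% in CKO-Mat and 94.0% and 75.4% in WT-Mat, against 95.7% and 98.0% in Oocyte.

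The remaining 4 of the 12 were chr11:118590501-118590700, chr5:121056501-121056700, chr9:118398001-118398400 and chr6:113327501-113327700, and they differed among themselves in the maternal genome. The chromosome 5 region was at 64.8% and 60.3% in Oocyte and the chromosome 11 region at 50.3% and 53.5%. The chromosome 9 region was at 6.63% and 32.5% in Oocyte, and the chromosome 6 region at 1.25% and 3.61%. Replicates with aphidicolin were far apart in several of them. The chromosome 11 region, ranked 2, stood at 14.8% and 83.4% in CKO-Pat-Aphi and at 68.6% and 43.1% in WT-Pat-Aphi. WT-Pat-Aphi held 81.7% and 60.5% at the chromosome 5 region, 76.8% and 34.9% at the chromosome 9 region and 92.4% and 37.5% at the chromosome 6 region.

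**Figure D3:**
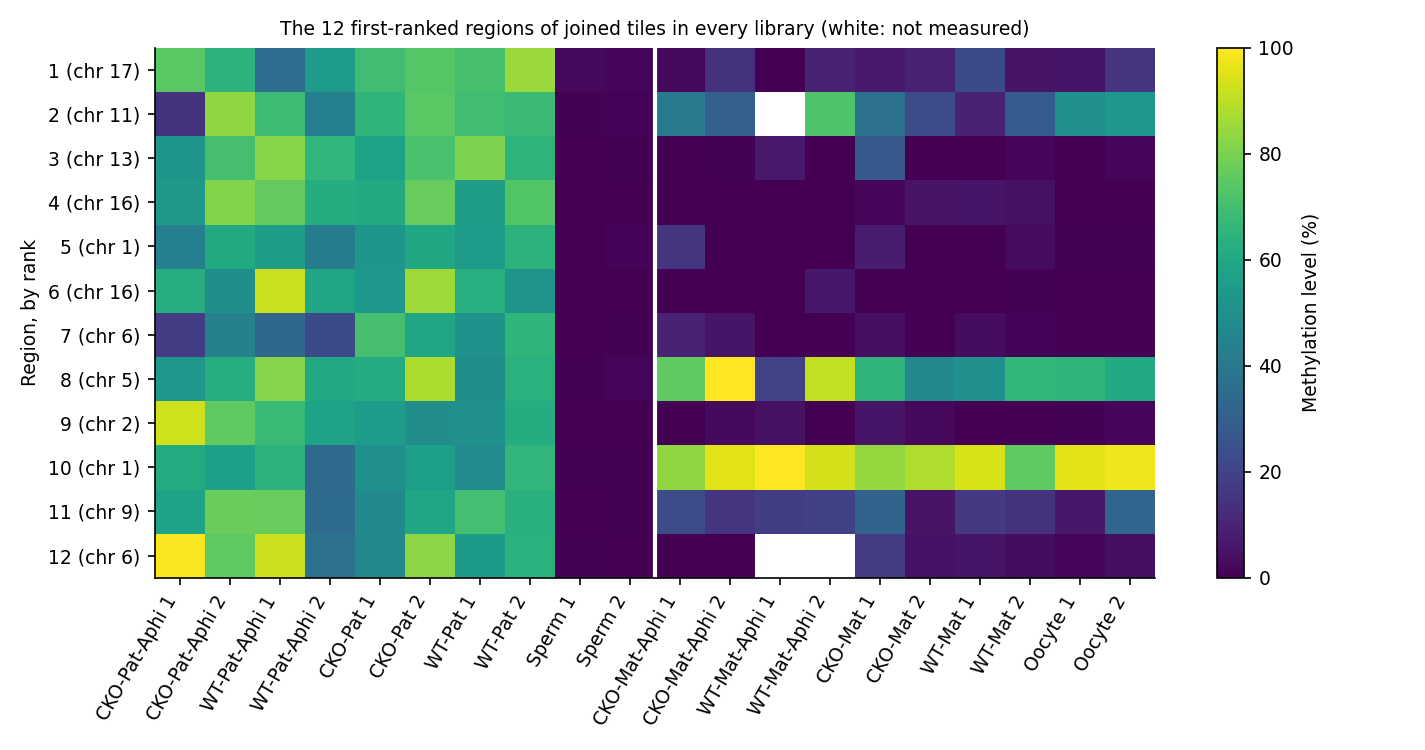
Methylation level, in percent by colour, of the 12 first-ranked regions (down the page, by rank, with their chromosome) in each of the 20 libraries. The first 8 columns, the paternal pronuclei, are high in most regions, Sperm is at 2.06% or less in all 12, and both Oocyte columns are at 60.3% or more at the regions ranked 8 and 10.

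Single tiles at 5% or less in both Oocyte libraries gave a gain that neither gamete carried. The tile whose lowest paternal library was highest lay at chr11:108771101-108771200. It had 58.9% and 73.7% in CKO-Pat-Aphi, 79.3% and 91.4% in WT-Pat-Aphi, 70.4% and 56.9% in CKO-Pat, 78.1% and 94.2% in WT-Pat and 0.295% and 1.20% in Sperm. Its maternal pronuclei had 0% and 6.63% in CKO-Mat and 0.260% and 4.41% in WT-Mat, with 0% in both Oocyte libraries. The 4 tiles next in that order, at chr13:31707201-31707300, chr2:155340401-155340500, chr12:75449601-75449700 and chr2:151921001-151921100, had lowest paternal libraries of 56.5%, 56.1%, 55.6% and 54.1%. None of the 5 exceeded 3.26% in Oocyte. The chromosome 13 tile lies in the third region described above, and chr2:155340401-155340500 in the ninth.

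The gain was spread over a neighbourhood wider than the tile. Tiles next to a member that were not members themselves averaged 31.8% in CKO-Pat-Aphi, 38.6% in WT-Pat-Aphi, 37.0% in CKO-Pat and 33.7% in WT-Pat at a distance of 100 bp, against 0.690% in Sperm. At 500 bp such tiles averaged 26.6% in CKO-Pat-Aphi, 30.4% in WT-Pat-Aphi, 30.8% in CKO-Pat and 30.3% in WT-Pat, against 1.37% in Sperm. The sperm level 500 bp away was thus still low while all 4 paternal groups were near 30%. Farther out the surroundings were methylated in sperm too. At 2000 bp to the right, Sperm averaged 35.8% around members and 20.4% around other low tiles. At 2000 bp to the left, it averaged 20.0% and 20.2%. The member values there rest on only 18 or 19 tiles per library. Around the other low tiles, the level 500 bp to the right was 1.75% in CKO-Pat, 1.46% in WT-Pat and 0.715% in Sperm. In the maternal genome the neighbours at 100 bp averaged 11.6% in CKO-Mat, 9.90% in WT-Mat and 10.3% in Oocyte.

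**Figure D4:**
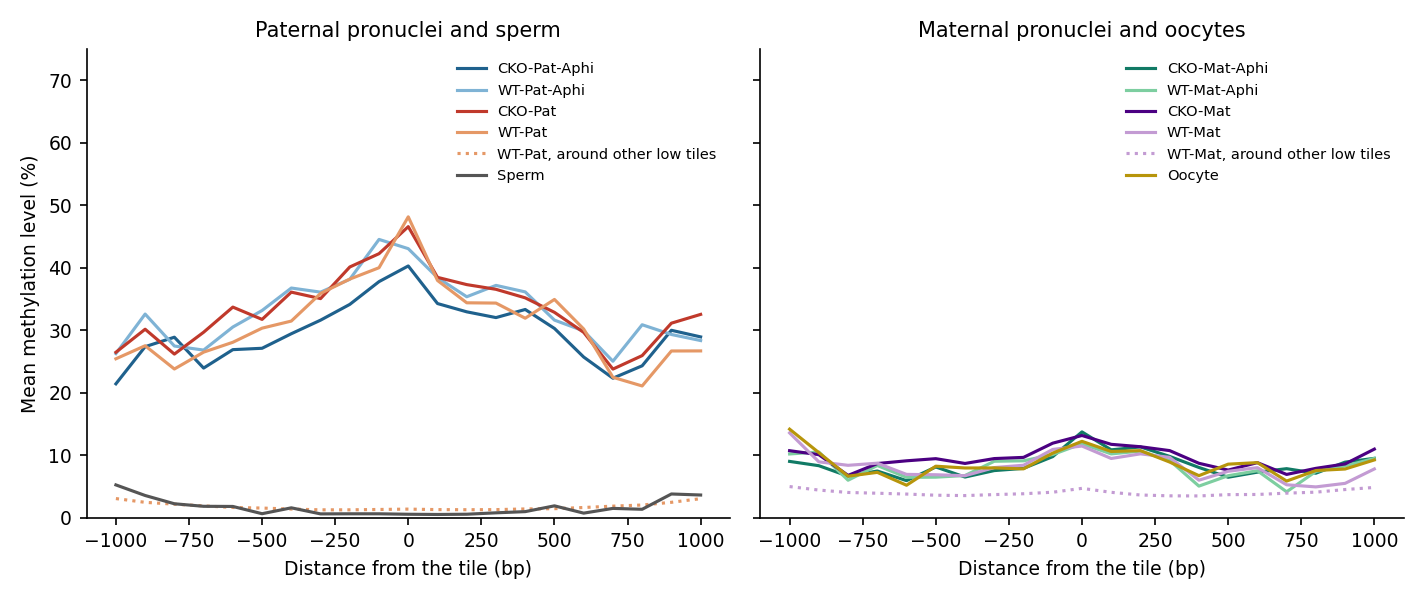
Mean methylation level in percent against distance from the tile in bp, up to 1000 bp on each side (solid lines, around the 449 members, 0 being the member itself; dotted lines, around the other low tiles). The 4 paternal groups fall slowly from above 40% at the member to between 20% and 35% at 1000 bp, while Sperm stays under 6%; the maternal groups and Oocyte run together between 4% and 15%.

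Within a member the positions varied. In a single paternal library the highest and lowest position of a tile differed by a median of 72.2 points. Where both strands of a CpG were read, their means were close, at 40.3% and 41.4% over 718 such pairs in CKO-Pat replicate 1 and 48.0% and 45.9% over 757 pairs in WT-Pat replicate 2. The strands of an individual pair nevertheless differed by over 50 points in 23.7% (CKO-Pat replicate 2) to 42.2% (WT-Pat replicate 1) of pairs across the mock paternal libraries. Replicates of a group also varied: the median absolute difference between them per member was 21.6 points in CKO-Pat-Aphi, 13.4 in CKO-Pat, 22.2 in WT-Pat-Aphi, 17.3 in WT-Pat and 0.306 in Sperm. Across the 449 members, levels in any pair of paternal libraries correlated with r of 0.161 to 0.429 over 28 pairs, a description in which tiles share regions and depth.

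The mean level over the members did not differ between CKO and WT paternal pronuclei beyond the spread between libraries. With aphidicolin the mean over members was lower by 2.77 points in CKO-Pat-Aphi than in WT-Pat-Aphi, and the 4 pairings of libraries ran from -11.5 to 6.00 points, so the sign depended on the libraries paired. Without the drug, where the values chose the tiles, CKO-Pat was lower than WT-Pat by 1.57 points, with pairings from -5.43 to 2.29. Both CKO-Pat-Aphi libraries were above both WT-Pat-Aphi libraries in 46 members (10.2%, against 2.23% of low tiles) and below them in 80 (17.8%, against 2.32%). Most low tiles are near 0 in these libraries and have little room to separate, so the members' shares are given only beside this background.

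The tile test, a quasi-binomial logistic model with Benjamini-Hochberg adjustment over all 61688 paternal tiles, called none of the 449 members between CKO-Pat-Aphi and WT-Pat-Aphi (a call needed an adjusted p under 0.05 and 10 points or more). It called 0 tiles in all (0%). At an unadjusted p under 0.05 there were 20 members (4.45%), 7 higher and 13 lower in CKO-Pat-Aphi, where 1.00% of all tiles were. Limma on arcsine square roots called 0 members and 43 tiles (0.0697%). The precision was low: a member's overdispersion left the information of about 4.49 independent calls per library, and the median 95% interval of a difference reached 41.8 points to each side. At the median member the interval around any smaller observed difference would include no difference. That interval is not adjusted for the number of tiles, so a call over 61688 tiles needed a larger difference still.

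Aphidicolin libraries read somewhat lower than mock libraries at the members, by 6.29 points in CKO-Pat-Aphi against CKO-Pat and by 5.10 points in WT-Pat-Aphi against WT-Pat. The library pairings ran from -10.9 to -1.65 points in CKO and from -13.1 to 2.89 in WT. The mock values had to reach 15% and the aphidicolin values did not, so this difference is a description, with no test. Of the members 163 (36.3%) had a higher mean with aphidicolin than without. Means with and without aphidicolin correlated across members with r = 0.596 (n = 449, tiles sharing regions and depth).

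The members whose level differed most between the treatments lay in both directions. The largest excess with aphidicolin was at chr2:155340501-155340600, with 100% and 51.5% in CKO-Pat-Aphi against 30.1% and 32.4% in CKO-Pat, and 59.8% in both WT-Pat-Aphi libraries against 15.8% and 42.1% in WT-Pat. That tile lies in the ninth region described above, whose other tile, chr2:155340401-155340500, had a mean 1.01 points higher with aphidicolin. Next came chr15:103000701-103000800 and chr6:48389201-48389300, where the mean was 36.7 and 36.4 points higher with aphidicolin. The largest deficit was at chr7:88295501-88295600, with 12.2% and 0% in CKO-Pat-Aphi against 31.2% and 79.3% in CKO-Pat, and 0% in both WT-Pat-Aphi libraries against 66.7% and 48.0% in WT-Pat. That tile had 2 positions and a median of 58 calls, and the second, chr11:20332301-20332400, had 2 positions and 84 calls. The third, chr6:43615901-43616000, lies in the seventh region described above.

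**Figure D5:**
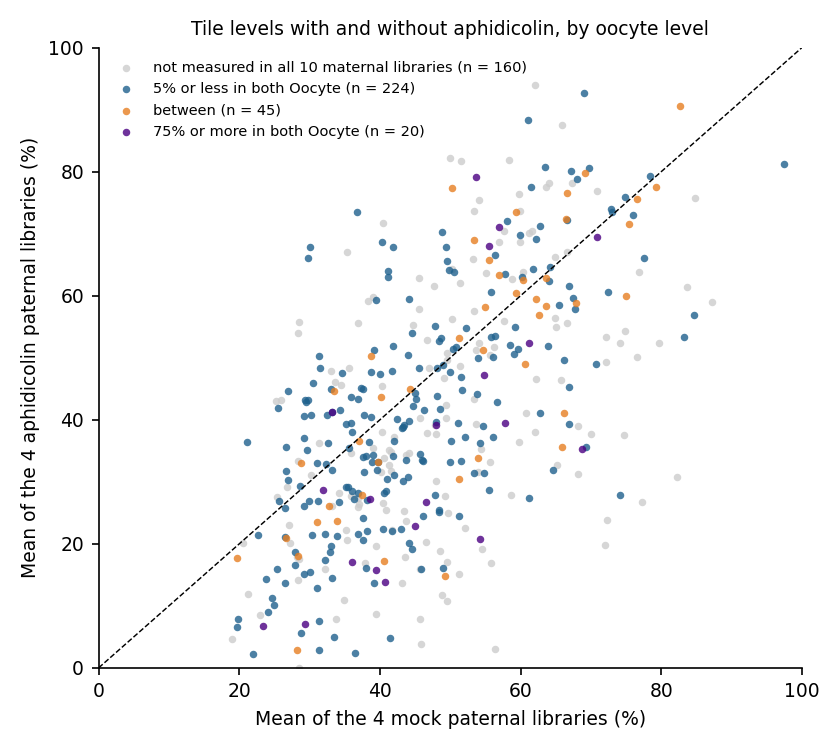
Mean level of each member in the 4 aphidicolin paternal libraries (vertical axis, percent) against that in the 4 mock paternal libraries (horizontal axis, percent), coloured by the level in oocytes. The dashed line marks equal levels; 163 of the 449 members lie above it, and members of every oocyte class are spread over the plot.

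The oocyte and maternal libraries asked whether the same tiles were methylated on the other parental genome. Of the 449 members 289 (64.4%) were measured in all 10 maternal libraries, a share close to the 65.4% of low tiles. Of these, 224 (77.5%, against 87.8% of low tiles) were at 5% or less in both Oocyte libraries, 20 (6.92%, against 2.63%) were at 75% or more in both, and 45 lay between. The share low in oocytes was thus below that of the low tiles, and the oocyte-methylated share, though small, was above it.

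At the 224 members that were low in both gametes, the paternal levels were 38.4% ± 2.88 in CKO-Pat-Aphi, 44.1% ± 4.22 in CKO-Pat, 43.2% ± 8.27 in WT-Pat-Aphi and 45.8% ± 2.84 in WT-Pat (SD, n = 2 each), against 0.399% in Sperm. In the maternal pronuclei the same tiles averaged 4.60% and 1.37% in CKO-Mat-Aphi, 1.54% and 1.29% in WT-Mat-Aphi, 4.71% and 2.61% in CKO-Mat, 1.13% and 1.58% in WT-Mat and 0.503% in each Oocyte library. All 4 aphidicolin paternal libraries were at 15% or more in 100 of the 224 (44.6%). At the 20 oocyte-methylated members, the paternal groups averaged 37.6% in CKO-Pat-Aphi, 45.0% in CKO-Pat, 35.4% in WT-Pat-Aphi and 49.6% in WT-Pat, and the maternal ones 86.5% in CKO-Mat and 88.6% in WT-Mat, against 97.0% in Oocyte.

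Tiles that are methylated in the oocyte and unmethylated in sperm would show maternal DNA in a paternal library, and also any new methylation of the paternal genome there, and these cannot be told apart. At 810 low tiles at 75% or more in both Oocyte libraries, the mean level was 8.52% and 2.94% in CKO-Pat-Aphi, 10.6% and 3.23% in CKO-Pat, 3.73% and 2.25% in WT-Pat-Aphi, 2.48% and 3.68% in WT-Pat and 0.687% and 0.782% in Sperm. What part maternal DNA has in the paternal levels was not tested.

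Over all 289 members, the mean was 13.8% and 11.1% in CKO-Mat-Aphi, 11.7% and 11.1% in WT-Mat-Aphi, 13.1% and 11.0% in CKO-Mat, 10.1% and 10.6% in WT-Mat and 10.4% and 11.2% in Oocyte. WT-Mat differed from Oocyte by -0.444 points, with pairings from -1.06 to 0.171, and CKO-Mat by 1.24 points, with pairings from -0.155 to 2.64. Both aphidicolin groups had means above that of Oocyte, at 12.4% in CKO-Mat-Aphi and 11.4% in WT-Mat-Aphi, against 10.8% in Oocyte. Both CKO-Mat libraries were above both Oocyte libraries in 45 members (15.6%, against 3.99% of low tiles) and below them in 25 (8.65%, against 8.37%). Both WT-Mat libraries were above both Oocyte libraries in 19 members (6.57%, against 3.50% of low tiles) and below them in 30 (10.4%, against 8.76%). Most low tiles are near 0 here as well (87.8% at 5% or less in both Oocyte libraries) and have little room to separate. The members' shares, here and in the maternal comparisons below, are therefore given only beside this background. The tile test over 72072 maternal tiles called 0 of the 289 members between WT-Mat and Oocyte and 14 tiles in all (0.0194%). At an unadjusted p under 0.05 it gave 2 members (0.692%, against 1.14% of all tiles), and limma called 0 members and 0.383% of tiles.

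CKO-Mat was higher than WT-Mat over the members by 1.68 points, in all 4 pairings (0.432 to 2.94), and these 4 pairings share their libraries. Both CKO-Mat libraries were above both WT-Mat libraries in 44 members (15.2%, against 5.08% of low tiles) and below them in 16 (5.54%, against 4.69%). The sperm-methylated tiles were also higher in CKO-Mat, as given above, and what part this has in the difference was not tested. The tile test called 0 members and 3 tiles (0.00416%) between CKO-Mat and WT-Mat. It gave 4 members (1.38%, against 1.27% of all tiles) at an unadjusted p under 0.05. Limma called 1 member and 0.591% of tiles. That member, named after its values were seen, was chr14:70008701-70008800, with 14.7% and 22.9% in CKO-Mat against 0% in both WT-Mat libraries (limma adjusted p = 0.0210).

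WT-Mat-Aphi exceeded WT-Mat by 1.05 points over the members, with pairings from 0.554 to 1.54, while all low tiles averaged 4.46% in WT-Mat-Aphi and 3.66% in WT-Mat. CKO-Mat-Aphi differed from CKO-Mat by 0.413 points, with pairings from -1.97 to 2.80 and a median over members of -0.0826. Both CKO-Mat-Aphi libraries were above both CKO-Mat libraries in 24 members (8.30%, against 3.71% of low tiles) and below them in 45 (15.6%, against 5.40%). In 30 members (10.4%, against 3.73% of low tiles) both WT-Mat-Aphi libraries were above both WT-Mat libraries, and in 18 (6.23%, against 4.40%) below. Between WT-Mat-Aphi and WT-Mat the tile test called 0 members and 6 tiles (0.00833%). It gave 6 members (2.08%, against 1.56% of all tiles) at an unadjusted p under 0.05, all higher in WT-Mat-Aphi. Limma called 1 member and 0.275% of tiles. That member, also named after its values were seen, was chr5:121076601-121076700, with 100% in both WT-Mat-Aphi libraries against 87.6% and 83.3% in WT-Mat (limma adjusted p = 0.0301).

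The same limits applied to the maternal side gave few tiles. Of 49715 maternal tiles at 5% or less in both Oocyte libraries, 26 (0.0523%) reached 15% in all 4 mock maternal libraries, where 449 of 47110 (0.953%) did so on the paternal side. On the 27046 tiles that were low in both gametes and measured in all libraries of both parents, 224 (0.828%) met the limits in the paternal pronuclei and 5 (0.0185%) in the maternal pronuclei, with 0 shared. With the aphidicolin libraries in place of the mock ones, the counts on these tiles were 179 paternal and 4 maternal. Among the 289 members, 24 (8.30%, against 2.92% of low tiles) were at 15% or more in all 8 maternal pronuclear libraries.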

How the data were processed

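DNA methylation was measured in 20 libraries by reduced representation bisulfite sequencing. The deposited files give, per CpG position of mm9, the percent methylated and the counts of methylated and unmethylated calls, not normalised. The submitters' processing notes name Bismark 0.10.1 and Trim Galore. Filters and duplicate removal by the authors are not known from the labels. Groups came from the labels.

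Positions with 5 or more reads were summed into 100 bp tiles with 2 or more positions and 10 or more calls. The members, region lists and the specification of the tile test's dispersion were chosen with earlier results of these data known. Named were the first 12 regions of 2 or more joined tiles by lowest mock level, the 3 largest and 3 smallest aphidicolin differences, the 5 tiles low in Oocyte with the highest lowest paternal level, 3 tiles on each side of the 15% limit, and called members.

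Each comparison used a quasi-binomial logistic model per tile, fitted with all pronuclear groups of a parent. Sperm was left out, and Oocyte was included only for WT-Mat against Oocyte. Dispersion came from groups in which each library expected 5 or more calls of both kinds, was trended on depth, shrunk with limma 3.58.1 (R 4.3.3) and floored at 1, followed by an F test and Benjamini-Hochberg adjustment. The test was also run on simulated data, at the fitted dispersions and again at lower ones, and its recovery of changes is not reported here. No replicates were duplicates: the mean chi-square between replicates was 1.92 in Sperm, 8.19 in Oocyte and 20.7 to 42.6 in pronuclei. Alternatives were another dispersion floor, limma on arcsine square roots, only the 2 groups compared, a replicate block, other limits and read minimums, and each library left out.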

Additional observations from a re-analysis of the deposited data

Results flagged for a closer look

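Chromosome X lay outside the choice of tiles, and the same limits were applied to it. Of its 216 measured paternal tiles 177 were at 5% or less in both Sperm libraries. Of these, 2 (1.13%, against 0.953% of the autosomal low tiles) reached 15% in all 4 mock paternal libraries. They averaged 29.8% in the 4 aphidicolin paternal libraries, 52.4% in the 4 mock paternal libraries and 0.147% in Sperm. The mock values chose these 2 tiles, so the level is a description.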

How the results depend on the processing

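The number of members was 449 and moved most with the limit and with WT-Pat replicate 1. A mock limit of 25% left 256, and leaving out a library each in turn gave 461 to 728, the highest without WT-Pat replicate 1. Other read minimums, shifted tile borders, a sperm limit of 2%, and the aphidicolin libraries as the choosers gave 345 to 464. At 15% or more in all 4 aphidicolin libraries were 191 of the 449 members. With 10 reads per position the count was 166 of 389, and with the sperm limit of 2% it was 169 of 395. A limit of 25% in the aphidicolin libraries left 140 of 449. With an aphidicolin library left out of the count in turn, 209 to 244 of 449 were at 15% or more in the rest.

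Counts of called tiles depended on the test. With limma they were 43 for CKO-Pat-Aphi against WT-Pat-Aphi, 276 for WT-Mat against Oocyte, 198 for WT-Mat-Aphi against WT-Mat and 426 for CKO-Mat against WT-Mat, in place of 0, 14, 6 and 3, and members called were 1 in each of the last 2 comparisons. With only the 2 groups compared, WT-Mat against Oocyte had 81. Leaving out a library gave 0 to 2, 1 to 7, 0 to 5 and 0 to 2 in the same order; the lone library left in a group is then assumed to vary like the others. The counts moved without CKO-Pat-Aphi replicate 2 (2), without either WT-Mat library (7) or either Oocyte library (1), without WT-Mat-Aphi replicate 1 (3) or either WT-Mat library (0), and, for CKO-Mat against WT-Mat, without CKO-Mat replicate 2 (0), WT-Mat replicate 1 (0) or WT-Mat replicate 2 (1). The cause was not tested. The replicate block gave 0 calls in all 4 comparisons; deviations of same-numbered libraries correlated at 0.0436, 0.00106, -0.0253 and 0.00971, which gives no sign of pairing, and the labels name none.

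Without leaving out a library, the members' mean ran from 38.3% to 40.1% in CKO-Pat-Aphi and from 42.3% to 43.2% in WT-Pat-Aphi over 4 alternatives each. Maternal means moved more. As a median over tiles they were 1.30% in CKO-Mat and 0% in CKO-Mat-Aphi, WT-Mat-Aphi, WT-Mat and Oocyte. Over members low in Oocyte they were 3.66% in CKO-Mat, 2.98% in CKO-Mat-Aphi, 1.42% in WT-Mat-Aphi, 1.36% in WT-Mat and 0.503% in Oocyte. Weighting by calls gave 10.7% in WT-Mat-Aphi, 9.88% in WT-Mat and 10.1% in Oocyte, and 10 reads per position gave 12.3%, 10.8% and 11.5%. Depth and overdispersion limit single tiles.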
